A study of Mus musculus with 15 samples.

Results

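The genes described are 8 that mark Schwann cells and their myelin: Mbp, Pmp22, Mal, Prx, Sox10, S100b, Cnp and Mag. They were taken by name from a table of 34714 genes. They were chosen by name with their levels in these 15 libraries already known, so their values are a description and not independent evidence. RNA was sequenced from the aortas of wild-type mice in 3 groups of 5 libraries. AngII + RvE1 mice received an infusion of the vasoconstrictor peptide angiotensin II (750 ng/kg per minute) together with intraperitoneal doses of 2 µg/kg daily of resolvin E1 (RvE1), a lipid mediator of the resolution of inflammation. AngII mice received angiotensin II infusion alone, and Sham mice formed the control group. The labels give no age and name no agent for Sham mice, and they do not say whether each library is a different animal; a p-value therefore reflects only how far libraries differ. Each table value was read as FPKM, a level scaled to gene length and library size.

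Schwann cells are the glia of peripheral nerves. Myelinating Schwann cells wrap large axons in a sheath of stacked membrane held together by a small set of abundant proteins, and non-myelinating Schwann cells ensheathe small axons without building that sheath. The nerves that run in the outer coat of the aorta are largely sympathetic fibres of small calibre, and larger nerves can lie in the fat around the vessel. Sox10 is the transcription factor that founds and maintains the lineage. Mbp compacts the inner faces of the myelin membrane, Pmp22 is a membrane protein of compact myelin, and Mal is a small proteolipid that organises membrane domains. Prx (periaxin) links the outer myelin surface to the basal lamina, and Mag is an adhesion molecule on the membrane facing the axon. Cnp encodes a cyclic nucleotide phosphodiesterase of non-compact myelin, and S100b a calcium-binding protein of glia that adipocytes also make.

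On mm10, with the RefSeq annotation of GRCm38.p6, the genes other than Mbp lie at chr2:127633226-127656695 (Mal), chr7:27499305-27520041 (Prx), chr7:30899175-30914922 (Mag), chr10:76253836-76261319 (S100b), chr11:63128982-63159547 (Pmp22), chr11:100574909-100591875 (Cnp) and chr15:79154913-79164490 (Sox10). The promoters of Mal, Prx and Pmp22 are shown because these 3 genes were among the 5 that were highest in library 4 of every group, as described below. Each is the 250 bases before a RefSeq transcription start, printed on the strand of the gene. Mal is at chr2:127656696-127656945 on the minus strand, Prx at chr7:27499074-27499323 on the plus strand and Pmp22, at the most upstream of its starts, at chr11:63128732-63128981 on the plus strand. Capitals mark a match to a searched motif.
Mal: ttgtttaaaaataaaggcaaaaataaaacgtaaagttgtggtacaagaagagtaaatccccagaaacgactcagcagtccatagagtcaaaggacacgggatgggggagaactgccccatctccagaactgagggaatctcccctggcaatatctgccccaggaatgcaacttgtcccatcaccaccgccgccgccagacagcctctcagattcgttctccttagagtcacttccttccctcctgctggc
Prx: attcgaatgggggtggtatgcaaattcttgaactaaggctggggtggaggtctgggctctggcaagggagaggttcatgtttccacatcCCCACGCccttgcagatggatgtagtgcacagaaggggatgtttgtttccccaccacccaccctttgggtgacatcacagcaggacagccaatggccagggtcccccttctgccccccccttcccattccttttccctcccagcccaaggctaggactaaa
Pmp22: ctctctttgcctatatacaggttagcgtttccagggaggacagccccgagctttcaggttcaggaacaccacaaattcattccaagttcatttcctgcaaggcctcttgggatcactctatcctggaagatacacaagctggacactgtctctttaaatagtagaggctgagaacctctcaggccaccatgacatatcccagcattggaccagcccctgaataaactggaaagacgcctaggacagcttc
The motifs searched on both strands were ACAAAG and ACAATG, core letters bound by SOX factors, and GCGTGGG, core letters bound by EGR factors such as Egr2, which drives myelin genes in Schwann cells. The Prx promoter held 1 match, GCGTGGG on the minus strand, and the Mal and Pmp22 promoters held 0. Of promoters not shown, that of Cnp held ACAAAG on the plus strand and that of S100b held 0. The overlapping Mag windows at chr7:30914864-30915113 and chr7:30914923-30915172 held ACAAAG on the minus strand. The Mag window at chr7:30914322-30914571 held 0. Of 32851 promoters of this length, 16.5% held ACAAAG, 10.7% held ACAATG and 4.30% held GCGTGGG. A match of these letters is a description of the window and not of binding.

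The libraries differed in transcripts of other cell types. Smooth muscle genes, which define the aortic wall, were present throughout: the 10 genes of that list summed to between 5463 and 9863 FPKM in AngII + RvE1 libraries, between 1235 and 3459 FPKM in AngII libraries and between 1770.3 and 12465 FPKM in Sham libraries. The 6 B cell genes summed to 683, 212 and 1045 FPKM in AngII libraries 3, 4 and 5, against at most 36.4 FPKM in any other library. Acta1, a skeletal muscle actin, stood at 549 FPKM in AngII library 4, against between 1.89 and 4.07 FPKM in the other AngII libraries. The list of 8 cardiac and skeletal muscle genes that holds Acta1 was highest in another library. It summed to 13.1, 1599, 9.95, 994 and 17.9 FPKM in AngII libraries 1 to 5. The sum was between 52.3 and 896 FPKM in AngII + RvE1 libraries and between 39.9 and 670 FPKM in Sham libraries. In whole tissue, fewer cells of a type and less RNA per cell cannot be told apart. Markers of the Schwann lineage outside the 8 genes were present: Erbb3, the receptor subunit for axonal neuregulin, stood between 0.508 and 2.71 FPKM over the 15 libraries, and Cdh19, a cadherin of the lineage, between 0.322 and 5.80 FPKM. Of 8 genes of central myelin, the sheath made by oligodendrocytes, 0 reached the level needed for testing, which was 1 FPKM in at least 5 libraries.

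At the level of the whole tissue, the medians over the 15 libraries on the FPKM scale were 73.5 for Pmp22, 29.6 for S100b, 27.2 for Mbp, 11.6 for Cnp, 3.29 for Sox10, 2.84 for Mal, 1.95 for Prx and 0.369 for Mag. The highest library exceeded the lowest by 3.79-fold for Pmp22 and by 20.1-fold for Mag, with the other 6 between. Mag reached 1 FPKM in only 3 libraries and was not tested, so 7 of the 8 genes passed the filter.

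Sox10 stood at 3.42, 4.25, 2.80, 5.29 and 1.68 FPKM in AngII + RvE1 libraries 1 to 5, at 5.94, 2.02, 3.29, 12.4 and 5.44 FPKM in AngII libraries and at 2.47, 1.11, 1.18, 5.19 and 1.18 FPKM in Sham libraries. Library 4 was the highest in each group, and the 3 groups overlapped. The means were 3.49 ± 1.38, 5.81 ± 3.996 and 2.23 ± 1.75 FPKM in AngII + RvE1, AngII and Sham libraries (SD, n = 5 each). On the log2(FPKM + 1) scale, AngII + RvE1 differed from AngII by -0.48 (SE 0.38), with an adjusted p of 0.434. AngII differed from Sham by 1.03 (SE 0.38), with an adjusted p of 0.115, and AngII + RvE1 from Sham by 0.56, with an adjusted p of 0.878. None of the 3 differences passed the threshold of 0.05, where p comes from limma with Benjamini-Hochberg adjustment over 12603 genes. Without AngII library 2, the difference of AngII from Sham was 1.28 and passed (limma adjusted p 0.0368), while 1719 of the 12603 genes passed there, against 400 with all libraries. Without AngII library 4, that difference was 0.74, the lowest on leaving out 1 library.

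Mbp, a protein of the sheath encoded at chr18:82475091-82585637, stood at 16.1, 23.3, 18.0, 31.9 and 55.0 FPKM in AngII + RvE1 libraries, at 35.1, 16.6, 27.2, 107 and 36.2 FPKM in AngII libraries and at 38.4, 10.5, 11.1, 37.6 and 7.95 FPKM in Sham libraries. AngII library 4 was far above the rest, and Sham split into libraries 1 and 4, at the upper end, and libraries 2, 3 and 5, far below them. The mean was 28.9 ± 15.8 FPKM in AngII + RvE1, 44.3 ± 35.7 FPKM in AngII and 21.1 ± 15.5 FPKM in Sham (SD, n = 5 each). The differences were -0.46 (SE 0.52, adjusted p 0.592) for AngII + RvE1 against AngII and 1.05 (SE 0.52, adjusted p 0.210) for AngII against Sham by limma. In 2 libraries a high Mbp came with a transcript of central myelin: Mobp, an oligodendrocyte protein, was 6.02 FPKM in AngII + RvE1 library 5 and 3.15 FPKM in Sham library 1, against at most 0.105 FPKM elsewhere. Over those groups the 8 central myelin genes summed to between 1.12 and 7.10 FPKM in AngII + RvE1, between 0.874 and 5.68 FPKM in AngII and between 0.455 and 4.19 FPKM in Sham. In AngII libraries 3, 4 and 5 the sums were 5.58, 3.52 and 5.68 FPKM, of which Cldn11 alone held 4.88, 2.91 and 5.01 FPKM. Opalin and Olig2 were at 0 in every AngII + RvE1 and Sham library. Their part in the Mbp values was not tested.

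Mal was 2.33, 2.84, 3.20, 4.55 and 1.68 FPKM in AngII + RvE1 libraries, 4.46, 2.15, 2.60, 12.9 and 5.19 FPKM in AngII libraries and 2.95, 0.848, 1.13, 4.41 and 1.30 FPKM in Sham libraries. Library 4 again held the highest value of each group. AngII + RvE1 differed from AngII by -0.55 (SE 0.38, limma adjusted p 0.356) and AngII from Sham by 0.96 (SE 0.38, limma adjusted p 0.132), so neither difference passed.

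Prx was 1.59, 1.95, 1.92, 4.07 and 2.19 FPKM in AngII + RvE1 libraries, 2.11, 1.31, 1.70, 10.2 and 2.49 FPKM in AngII libraries and 1.96, 1.18, 0.511, 2.76 and 1.85 FPKM in Sham libraries. Apart from library 4 of each group, values were between 0.511 and 2.49 FPKM. The differences were -0.21 (SE 0.37, limma adjusted p 0.738) for AngII + RvE1 against AngII and 0.57 (SE 0.37, limma adjusted p 0.339) for AngII against Sham.

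Pmp22, which many non-neural cells also make, had the smallest ratio of highest to lowest library. It stood at 90.8, 73.8, 73.1, 100.3 and 74.2 FPKM in AngII + RvE1 libraries, at 73.5, 68.1, 67.6, 153 and 61.3 FPKM in AngII libraries and at 86.2, 54.6, 40.4, 93.0 and 60.8 FPKM in Sham libraries. Outside AngII library 4, AngII values lay within the Sham range and no higher than the lower part of the AngII + RvE1 range. In the fit, AngII + RvE1 differed from AngII by 0.04 (SE 0.26, limma adjusted p 0.941).

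Mag stood at 0.286, 0.364, 0.433, 0.870 and 0.208 FPKM in AngII + RvE1 libraries, at 0.639, 0.239, 1.37, 2.19 and 1.31 FPKM in AngII libraries and at 0.369, 0.123, 0.109, 0.971 and 0.127 FPKM in Sham libraries. The 3 values above 1 FPKM were AngII libraries 3, 4 and 5. Fitted without the filter on low values, Mag differed by -0.53 (SE 0.24, limma adjusted p 0.205) between AngII + RvE1 and AngII and by 0.65 (SE 0.24, limma adjusted p 0.154) between AngII and Sham.

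**Figure D1:**
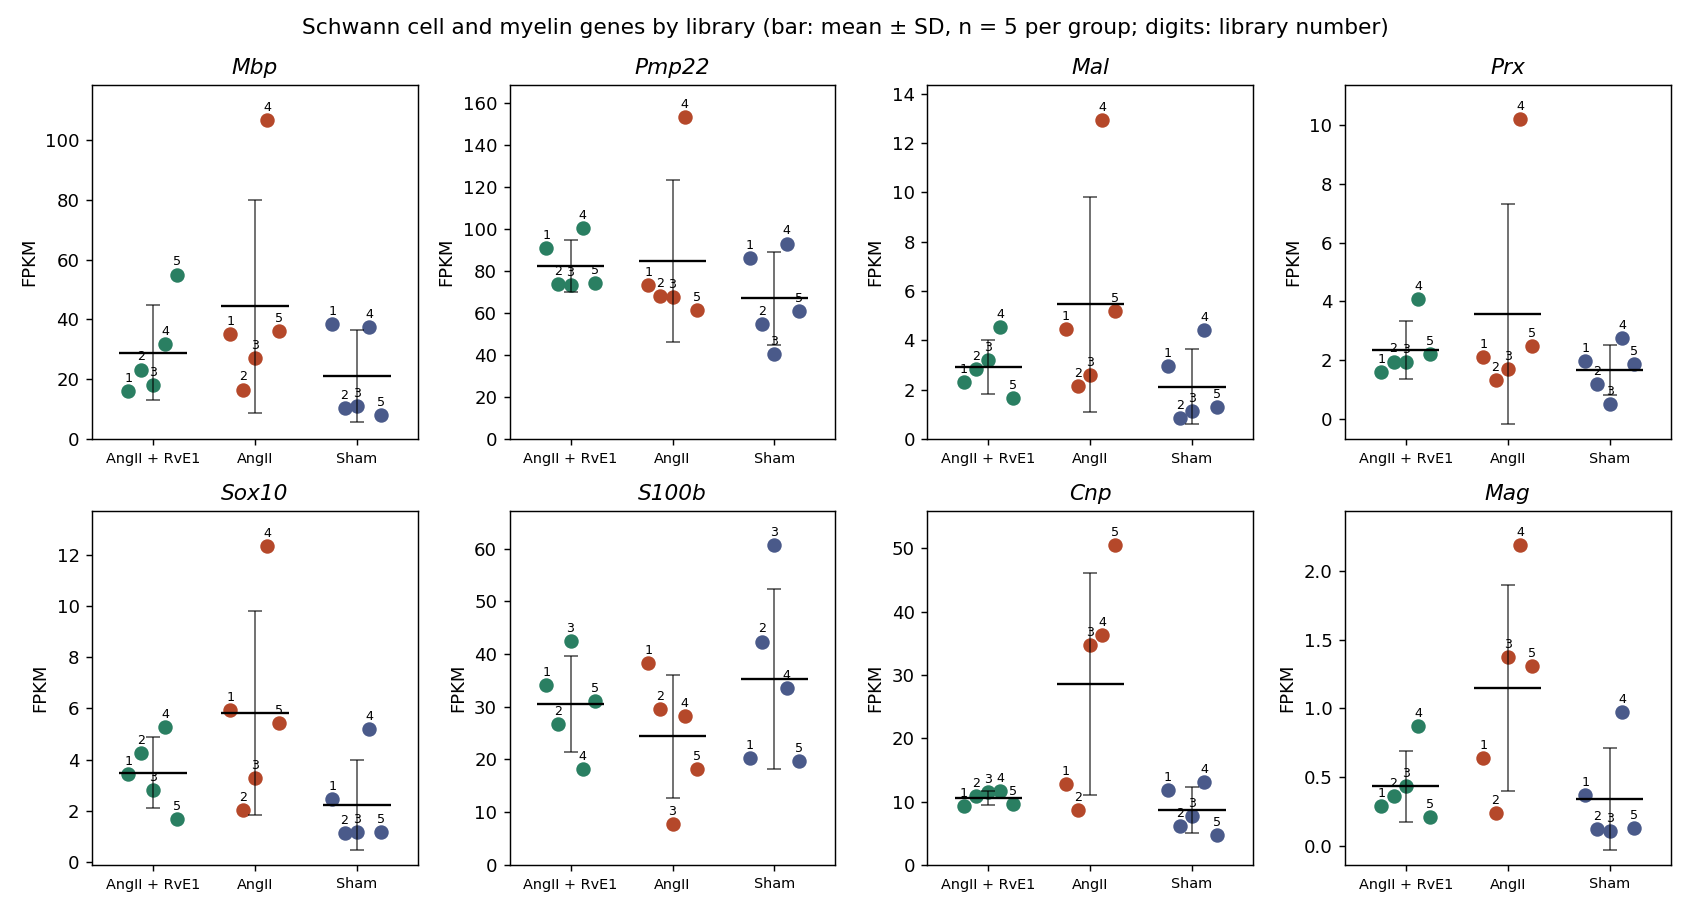
Level in FPKM of the 8 genes in every library, with AngII + RvE1, AngII and Sham from left to right; digits are library numbers, bars the mean ± SD of 5 libraries. AngII library 4 is the highest of 15 for Mbp, Pmp22, Mal, Prx, Sox10 and Mag, while Cnp is high in AngII libraries 3, 4 and 5 and S100b is lowest in AngII library 3, at 7.70 FPKM.

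Cnp had a different pattern. It stood at 9.36, 10.8, 11.6, 11.7 and 9.54 FPKM in AngII + RvE1 libraries, at 12.7, 8.64, 34.8, 36.3 and 50.5 FPKM in AngII libraries and at 11.8, 6.16, 7.76, 13.1 and 4.71 FPKM in Sham libraries. AngII libraries 3, 4 and 5 stood apart, and AngII libraries 1 and 2 lay within the Sham range. The mean was 10.6 ± 1.09 FPKM in AngII + RvE1, 28.6 ± 17.5 FPKM in AngII and 8.70 ± 3.61 FPKM in Sham (SD, n = 5 each). The difference was -1.09 (SE 0.39, limma adjusted p 0.0884) for AngII + RvE1 against AngII and 1.43 (SE 0.39, limma adjusted p 0.0582) for AngII against Sham. Without AngII libraries 3, 4 and 5, it was 0.01 (SE 0.30) for AngII + RvE1 against AngII and 0.33 (SE 0.30) for AngII against Sham. It passed in both comparisons when AngII library 1 was left out (limma adjusted p 0.0444 and 0.0237) or AngII library 2 was left out (limma adjusted p 0.0159 and 0.0107). Over all 12603 genes, leaving out AngII library 1 gave 13.2% and 10.5% called in these comparisons, and leaving out AngII library 2 gave 16.1% and 13.6%.

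The same 3 AngII libraries carried the lymphocyte transcripts. Cd79a, a chain of the B cell receptor complex, was between 2.59 and 4.06 FPKM in AngII + RvE1 libraries, was 4.55, 1.70, 409, 125 and 591 FPKM in AngII libraries 1 to 5, and was between 1.36 and 18.7 FPKM in Sham libraries. The 8 T cell genes summed to between 2.75 and 6.27 FPKM in AngII + RvE1, between 3.13 and 233 FPKM in AngII and between 1.81 and 30.5 FPKM in Sham. With group means removed, Cnp correlated over the 15 libraries at r = 0.85 with the mean of the B cell list and at 0.82 with that of the T cell list. The 3 genes most like it were Vtn (vitronectin, r = 0.97), Pcgf6 (r = 0.93) and Ccl19, a chemokine of lymphoid tissue (r = 0.92). The points are 15 libraries of 1 tissue, and 3 of them lie far from the rest. The part of lymphoid tissue in the Cnp values was not tested.

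S100b did not follow the other genes. It stood at 34.2, 26.7, 42.5, 18.1 and 31.1 FPKM in AngII + RvE1 libraries, at 38.2, 29.6, 7.70, 28.2 and 18.1 FPKM in AngII libraries and at 20.2, 42.4, 60.7, 33.6 and 19.8 FPKM in Sham libraries. The highest value was Sham library 3 and the lowest AngII library 3, and the groups overlapped throughout. The difference was 0.43 (SE 0.39, limma adjusted p 0.495) for AngII + RvE1 against AngII and -0.56 (SE 0.39, limma adjusted p 0.383) for AngII against Sham. With group means removed, its correlation was -0.02 with Sox10 and 0.83 with the brown adipocyte list. The 7 genes of that list summed to between 2521 and 7224 FPKM in AngII + RvE1, between 819 and 8097 FPKM in AngII and between 1908 and 10758 FPKM in Sham, with the lowest sum in AngII library 3 and the highest in Sham library 3. The genes most like S100b were Ndufb10, a subunit of mitochondrial complex I, Mcrip2 and Ifi27, each at r = 0.97. The part of adipocytes in the S100b values was not tested.

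**Figure D2:**
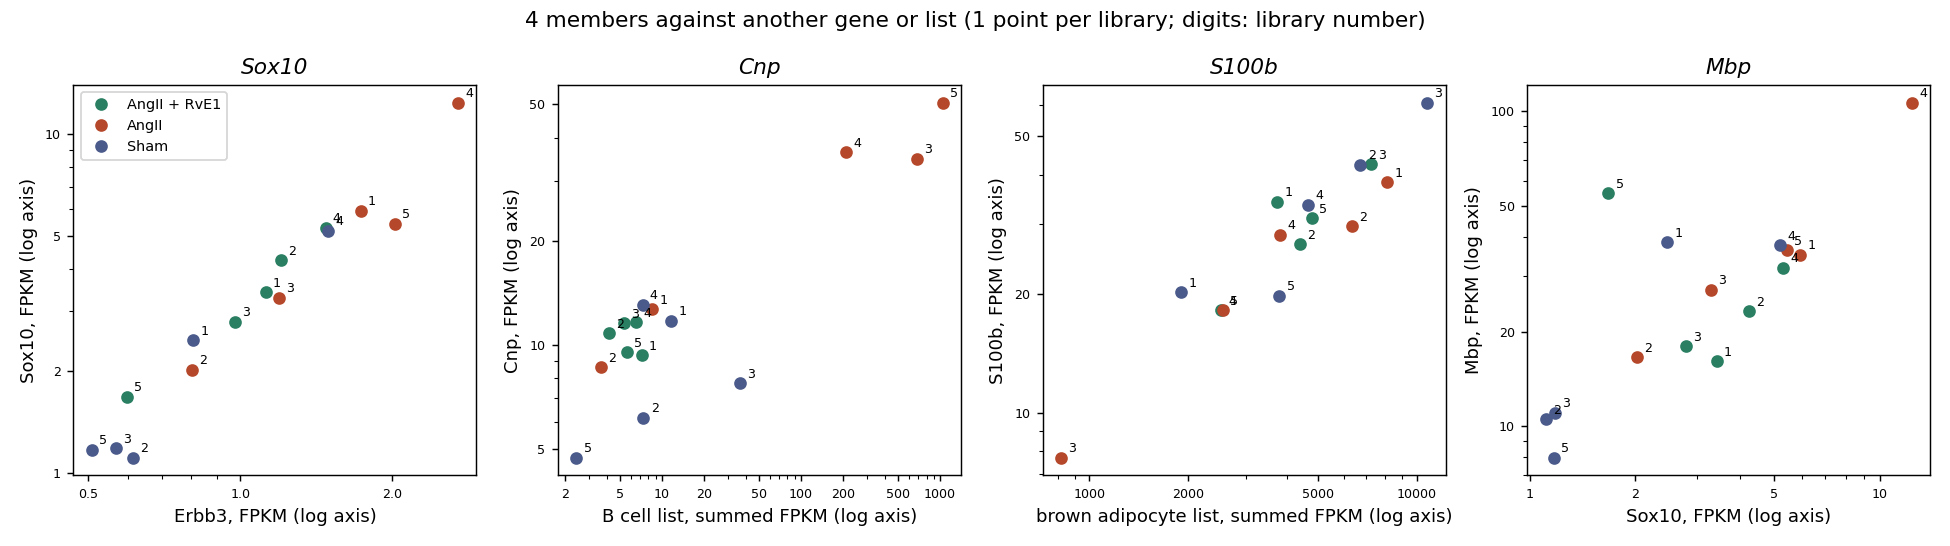
Level in FPKM of Sox10, Cnp, S100b and Mbp in each of the 15 libraries against Erbb3, the summed B cell list, the summed brown adipocyte list and Sox10, all on log axes; digits are library numbers. Sox10 follows Erbb3, Cnp is high where the B cell sum is 212 FPKM or more, S100b follows the brown adipocyte sum, and Mbp lies above its trend with Sox10 in AngII + RvE1 library 5 and Sham library 1.

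Set side by side by mean FPKM, 7 of the 8 genes were highest in AngII, then AngII + RvE1, then Sham, and S100b had the reverse order. On the log2(FPKM + 1) scale Pmp22 was instead 0.04 higher in AngII + RvE1 than in AngII. Without AngII library 4, Pmp22 and Prx were 0.27 and 0.18 higher in AngII + RvE1 than in AngII, while Mbp, Mal, Sox10 and Cnp stayed lower. In no case did groups separate: for 0 of the 8 genes were all libraries of a group above or below those of another. Over all genes tested, 5.87% lay wholly higher and 5.23% wholly lower in AngII + RvE1 than in AngII, 2.92% and 0.778% in AngII than in Sham, and 0.825% and 0.262% in AngII + RvE1 than in Sham. Of the 7 genes tested, 0 passed in AngII + RvE1 against AngII, where 8.52% of all 12603 genes passed, 4.21% as higher and 4.31% as lower. In AngII against Sham 0 of 7 passed, where 3.17% of all genes did, 2.36% as higher and 0.809% as lower. In AngII + RvE1 against Sham 0 of 7 passed, where 0.0238% did, 0.0159% as higher and 0.00793% as lower. At an unadjusted p under 0.05 the counts were 1, 3 and 0 of 7 in these 3 comparisons, where 29%, 26.2% and 6.69% of all genes tested had such a p. The median difference of the 7 was -0.46 in AngII + RvE1 against AngII, 0.96 in AngII against Sham and 0.36 in AngII + RvE1 against Sham, on the log2(FPKM + 1) scale. Over all genes tested the medians were -0.11, 0.11 and 0.01. The first 2 comparisons share the AngII libraries. Rescaling libraries to a common median moved the medians of all genes to -0.03 and 0.01 in these 2 comparisons and left those of the 7 genes at -0.36 and 0.87. It changed the split of all calls from 531 higher and 543 lower to 799 higher and 465 lower in AngII + RvE1 against AngII, and from 298 higher and 102 lower to 257 higher and 247 lower in AngII against Sham.

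Both the calls and the medians changed with weights per library and with the AngII libraries kept. Without AngII library 4 the median difference of the 7 genes was -0.08 in AngII + RvE1 against AngII and 0.63 in AngII against Sham. With limma's weights per library, which gave AngII library 4 a weight of 6.35 and the other 14 libraries at most 3.84, 5 of the 7 passed as lower in AngII + RvE1 than in AngII, where 23.5% of all genes tested did so, and 6 of the 7 passed as higher in AngII than in Sham, where 16.7% did. Without AngII libraries 3, 4 and 5 the median was 0.01 in AngII + RvE1 against AngII and 0.33 in AngII against Sham.

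**Figure D3:**
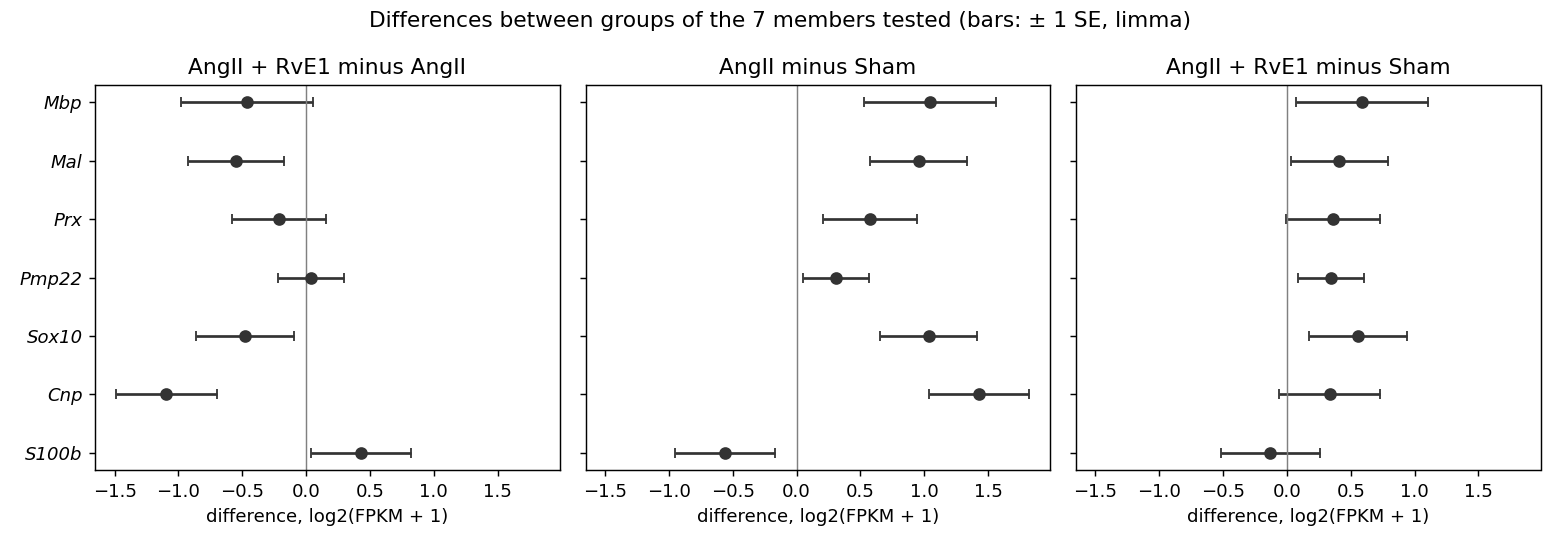
Difference in log2(FPKM + 1) of the 7 genes tested for AngII + RvE1 minus AngII, AngII minus Sham and AngII + RvE1 minus Sham; points are limma estimates from 5 libraries per group and bars ± 1 SE. Cnp lies farthest from 0 in the first 2 panels, at -1.09 and 1.43, and S100b has the opposite sign to Cnp in each panel.

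Between-group variance was 49.8% of the total for Cnp, 33.6% for Sox10, 30.8% for Mal, 21.9% for Mbp, 14.7% for Prx, 13.8% for Pmp22 and 13.5% for S100b, against a median of 23.96% over all genes tested. The SD within groups was 0.43 to 0.91 on the log2(FPKM + 1) scale for the 7 genes, against a median of 0.29 over all genes tested.

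Across libraries, library 4 was the highest of its group for 6 of the 8 genes in each group, and for Mag, Mal, Pmp22, Prx and Sox10 in all 3 groups. Library numbers were not taken to pair libraries, so the number 4 has no known shared meaning across groups. The share of all genes highest in library 4 was not computed. AngII library 4 exceeded the median of the other 4 AngII libraries by 5.35-fold for Prx, 3.66-fold for Mal, 3.42-fold for Mbp, 2.83-fold for Sox10, 2.26-fold for Pmp22 and 2.25-fold for Mag, and by 1.18-fold for S100b. AngII library 2 was the lowest AngII library for 6 of the 8. With group means removed, Sox10, Mal, Prx, Pmp22 and Mbp correlated with one another at r between 0.68 and 0.95.

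By the same correlation, Mal was most like Pllp (r = 0.97), a myelin proteolipid of the same family, and Sox10 was among the 3 genes most like it (0.95). Sox10 was most like Gjc3 (0.98), a connexin of glia, Erbb3 (0.98) and Kcna6 (0.97), a potassium channel. Prx was most like Epb41l4b (0.94), Fam178b (0.90) and Ncmap (0.90), a protein of non-compact myelin. Pmp22 was most like Rtkn (0.91), Plekha4 (0.90) and Prx (0.88), and Mbp like Efnb1 (0.89), Plekhb1 (0.88) and Vwa1 (0.87). These are correlations over 15 libraries that share a tissue, and AngII library 4 was the highest of the 15 for Mal, Sox10, Prx, Pmp22 and Mbp.

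Of 12 further proteins of peripheral myelin, 8 were tested, and 1 passed, in AngII + RvE1 against AngII, where 8.52% of all genes tested did. That gene was Tspan2, a tetraspanin that smooth muscle also makes: it was 35.6, 23.8, 34.2, 35.6 and 48.2 FPKM in AngII + RvE1 libraries and 9.38, 16.5, 10.4, 11.7 and 7.60 FPKM in AngII libraries, a difference of 1.60 (SE 0.32, limma adjusted p 0.0175). The sign was opposite to that of Mbp, Mal and Sox10, none of which passed, and the 2 groups did not overlap. The call of Tspan2 was lost without AngII + RvE1 library 5 (limma adjusted p 0.0552) or AngII library 5 (limma adjusted p 0.0579). The 10 smooth muscle genes moved in the same comparison: 8 were higher and 0 lower in AngII + RvE1 than in AngII, with a median of 1.85, and 2 were lower and 0 higher in AngII than in Sham, with a median of -1.24. Over all genes tested, 4.21% passed as higher in the first of these comparisons and 0.809% as lower in the second. With the mean of the smooth muscle list as a covariate, 0 of the 12603 genes passed as higher and 1 as lower in AngII + RvE1 than in AngII, and the difference of Tspan2 was 0.25 (SE 0.19, limma adjusted p 0.589). The calls of Gldn, Ncam1, Sqle and Wif1 in AngII + RvE1 against AngII, given below, ended there too. The sum of the smooth muscle list was between 5463 and 9863 FPKM in AngII + RvE1 and between 1235 and 3459 FPKM in AngII, without overlap. In this comparison the covariate therefore cannot be separated from the group, for Tspan2 or for the genes below, and the lost calls do not show a part of smooth muscle. With the mean of the adipocyte list as a covariate, these 5 calls also ended, at limma adjusted p between 0.0509 (Gldn) and 0.134 (Wif1), where 9 of the 12603 genes passed as higher and 7 as lower. All 5 ended without AngII libraries 3, 4 and 5, where 0 passed as higher and 6 as lower. In AngII against Sham, Tspan2 differed by -1.09 (limma adjusted p 0.0688), and in AngII + RvE1 against Sham the gene with the smallest p was Fxyd6, an ion transport regulator, at 0.86 (limma adjusted p 0.677). In these 2 comparisons 0 of 8 passed, with 5 and 2 at an unadjusted p under 0.05, against 26.2% and 6.69% of all genes tested. The list medians were -0.33, 0.69 and 0.47 in AngII + RvE1 against AngII, AngII against Sham and AngII + RvE1 against Sham.

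Of the 10 genes of the node and paranode, where the sheath meets the axon, 6 were tested. Gldn (gliomedin), which gathers sodium channels at nodes, was 2.92, 2.80, 3.09, 2.67 and 2.92 FPKM in AngII + RvE1 libraries, 1.02, 1.44, 0.415, 0.844 and 0.318 FPKM in AngII libraries and 2.11, 2.95, 2.49, 4.30 and 3.38 FPKM in Sham libraries. AngII libraries lay below every library of the other groups. Gldn passed in AngII + RvE1 against AngII, with a difference of 1.14 (SE 0.17, limma adjusted p 0.0108), and in AngII against Sham, with a difference of -1.18 (SE 0.17, limma adjusted p 0.00363). With the smooth muscle covariate the differences were 0.95 (limma adjusted p 0.353) and -1.05 (limma adjusted p 0.0427). Gldn was the only 1 of the 6 to pass in either comparison, where 8.52% and 3.17% of all genes tested passed. The list medians were -0.42 and 0.75. In AngII + RvE1 against Sham 0 passed, with 2 at an unadjusted p under 0.05 (6.69% of all genes), and the gene with the smallest p was Cntnap1, a paranodal adhesion protein, at -0.67 (limma adjusted p 0.664).

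Of the 18 Schwann cell regulators, 13 were tested. Egr2 differed by -0.36, 0.45 and 0.09 in AngII + RvE1 against AngII, AngII against Sham and AngII + RvE1 against Sham, and Erbb3 by -0.35, 0.56 and 0.22, with none passing. Yap1, a transcriptional co-activator of the Hippo pathway that many cells make, fell in AngII to 12.7 ± 1.51 FPKM, against 19.97 ± 4.06 FPKM in Sham (SD, n = 5 each), a difference of -0.60 (SE 0.13, limma adjusted p 0.0324). With the smooth muscle covariate the difference was -0.30 (SE 0.12, limma adjusted p 0.210), and the call also ended under 9 other alternatives, among them leaving out AngII library 3, 4 or 5 or Sham library 1 or 5 (limma adjusted p between 0.0542 and 0.0925 on leaving out 1 of these). Yap1 was the only 1 of 13 to pass in AngII against Sham, where 3.17% of all genes tested passed. In AngII + RvE1 against AngII or Sham 0 passed, where 8.52% and 0.0238% of all genes tested did. At an unadjusted p under 0.05 the counts there were 3 and 0, against 29% and 6.69% of all genes tested. The gene with the smallest p in AngII + RvE1 against AngII was Zeb2, a repressor needed for myelination, at -0.49 (limma adjusted p 0.104).

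Of the 13 genes of non-myelinating Schwann cells, 11 were tested. Scn7a, a sodium channel of these cells, differed by -0.56 (SE 0.20, limma adjusted p 0.0889) in AngII + RvE1 against AngII and by 0.67 (SE 0.20, limma adjusted p 0.0705) in AngII against Sham. Ncam1, an adhesion molecule that other cells also make, was 24.1, 18.1, 18.6, 29.1 and 29.9 FPKM in AngII + RvE1 libraries and 7.68, 9.26, 4.72, 8.77 and 3.45 FPKM in AngII libraries. It rose in AngII + RvE1 against AngII, where 8.52% of all genes tested passed, by 1.73 (SE 0.30, limma adjusted p 0.0135) and was the only 1 of the 11 to pass in any comparison. With the smooth muscle covariate the difference was 0.47 (SE 0.18, limma adjusted p 0.458). In AngII against Sham and AngII + RvE1 against Sham, 9 and 4 of the 11 had an unadjusted p under 0.05, against 26.2% and 6.69% of all genes tested. The list medians were -0.33, 0.74 and 0.42 in the same 3 comparisons.

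Of 12 genes of myelin lipid synthesis, 9 were tested. In AngII against Sham, 3 fell: Cyp51 (difference -0.81, SE 0.14, limma adjusted p 0.00845), and Sqle (difference -0.84, SE 0.21, limma adjusted p 0.0452), enzymes of sterol synthesis, and Scd2, a fatty acid desaturase (difference -1.56, SE 0.34, limma adjusted p 0.0300). Over all genes tested, 0.809% passed as lower in that comparison. Sqle rose in AngII + RvE1 against AngII by 0.77 (SE 0.21, limma adjusted p 0.0417), but in each of its 2 comparisons it passed under only 9 of 24 alternatives; on leaving out 1 library, its limma adjusted p reached 0.101 in AngII + RvE1 against AngII and 0.0953 in AngII against Sham. With the smooth muscle covariate, Sqle differed by 1.22 in AngII + RvE1 against AngII (limma adjusted p 0.267). Scd2 passed under 15 of the 24, with the call lost without AngII library 3, 4 or 5 or Sham library 2 or 4 (limma adjusted p between 0.0506 and 0.0732), and Cyp51 under 22. These enzymes work in most cells, and their direction in AngII against Sham was opposite to that of Mbp, Mal and Sox10, none of which passed. In AngII + RvE1 against Sham 0 of the 9 passed, with 2 at an unadjusted p under 0.05 (6.69% of all genes), and Cyp51 had the smallest p (difference -0.59, limma adjusted p 0.343).

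Of 8 genes of the perineurium and endoneurium, the connective coats of nerves, 7 were tested. Wif1, a secreted Wnt inhibitor, was 5.55 ± 2.38 FPKM in AngII + RvE1 and 1.19 ± 0.854 FPKM in AngII (SD, n = 5 each), and rose by 1.59 (SE 0.35, limma adjusted p 0.0205). With the smooth muscle covariate the difference was 0.48 (SE 0.40, limma adjusted p 0.613), and the call of Wif1 was also lost without AngII + RvE1 library 1, 4 or 5 or AngII library 5 (limma adjusted p between 0.0564 and 0.0643). Cldn1, a tight junction protein of the perineurium, differed by 0.68 in AngII against Sham (limma adjusted p 0.0640) and by 0.33 in AngII + RvE1 against Sham (limma adjusted p 0.843). In these 2 comparisons 0 of 7 passed, with 4 and 0 at an unadjusted p under 0.05, against 26.2% and 6.69% of all genes tested. The sum of the 8 genes ranged from 30.2 to 38.0 FPKM in AngII + RvE1, 28.7 to 41.1 FPKM in AngII and 18.6 to 42.7 FPKM in Sham, and the ranges overlapped.

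Axonal transcripts shared only some of their high libraries with the sheath proteins. In AngII, the summed neuron and axon genes were highest in library 4 and lowest in library 2, as were Mbp, Mal and Prx. In AngII + RvE1 that sum was highest in library 2, while Mal, Prx and Pmp22 were highest in library 4. Npy, a sympathetic neuropeptide, was 142, 138, 114, 84.5 and 0.184 FPKM in AngII + RvE1 libraries, 199, 0, 69.6, 239 and 65.6 FPKM in AngII libraries and 1.34, 0.773, 0.163, 75.2 and 0 FPKM in Sham libraries. Values were high in AngII + RvE1 libraries 1 to 4, in AngII libraries 1, 3, 4 and 5, and in Sham library 4. Th, the rate-limiting enzyme of noradrenaline synthesis, was high in the same 9 libraries. The 15 genes of the neuron and axon list summed to between 85.5 and 537 FPKM in AngII + RvE1, between 35.7 and 659 FPKM in AngII and between 17.0 and 204 FPKM in Sham. Of its 12 tested genes 0 passed in any comparison, with medians of 0.01, 2.30 and 2.36 in AngII + RvE1 against AngII, AngII against Sham and AngII + RvE1 against Sham. At an unadjusted p under 0.05 the counts were 0, 11 and 12, against 29%, 26.2% and 6.69% of all genes tested. The genes with the smallest p were Uchl1, a neuronal deubiquitinase, at 0.94 (limma adjusted p 0.179) and 1.88 (limma adjusted p 0.393) in the comparisons with AngII + RvE1, and Nefl, a neurofilament subunit, at 1.53 (limma adjusted p 0.115) in AngII against Sham. Ngfr, the neurotrophin receptor of immature and non-myelinating Schwann cells, was 10.7, 13.9, 11.0, 6.89 and 0.211 FPKM in AngII + RvE1 libraries, 18.1, 0.369, 5.96, 17.3 and 5.57 FPKM in AngII libraries and 0.363, 0.637, 0.543, 5.28 and 0.260 FPKM in Sham libraries. Its high libraries were those of Npy, and so were those of Fabp7, a lipid-binding protein of glia, which differed by 2.33 in AngII + RvE1 against Sham (limma adjusted p 0.664). With group means removed, the neuron list correlated at r = 0.81 with Sox10, 0.67 with Mal, 0.46 with Pmp22, 0.43 with Prx and 0.27 with Mbp. The part of nerve or ganglion content in the values of the 8 genes was not tested.

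**Figure D4:**
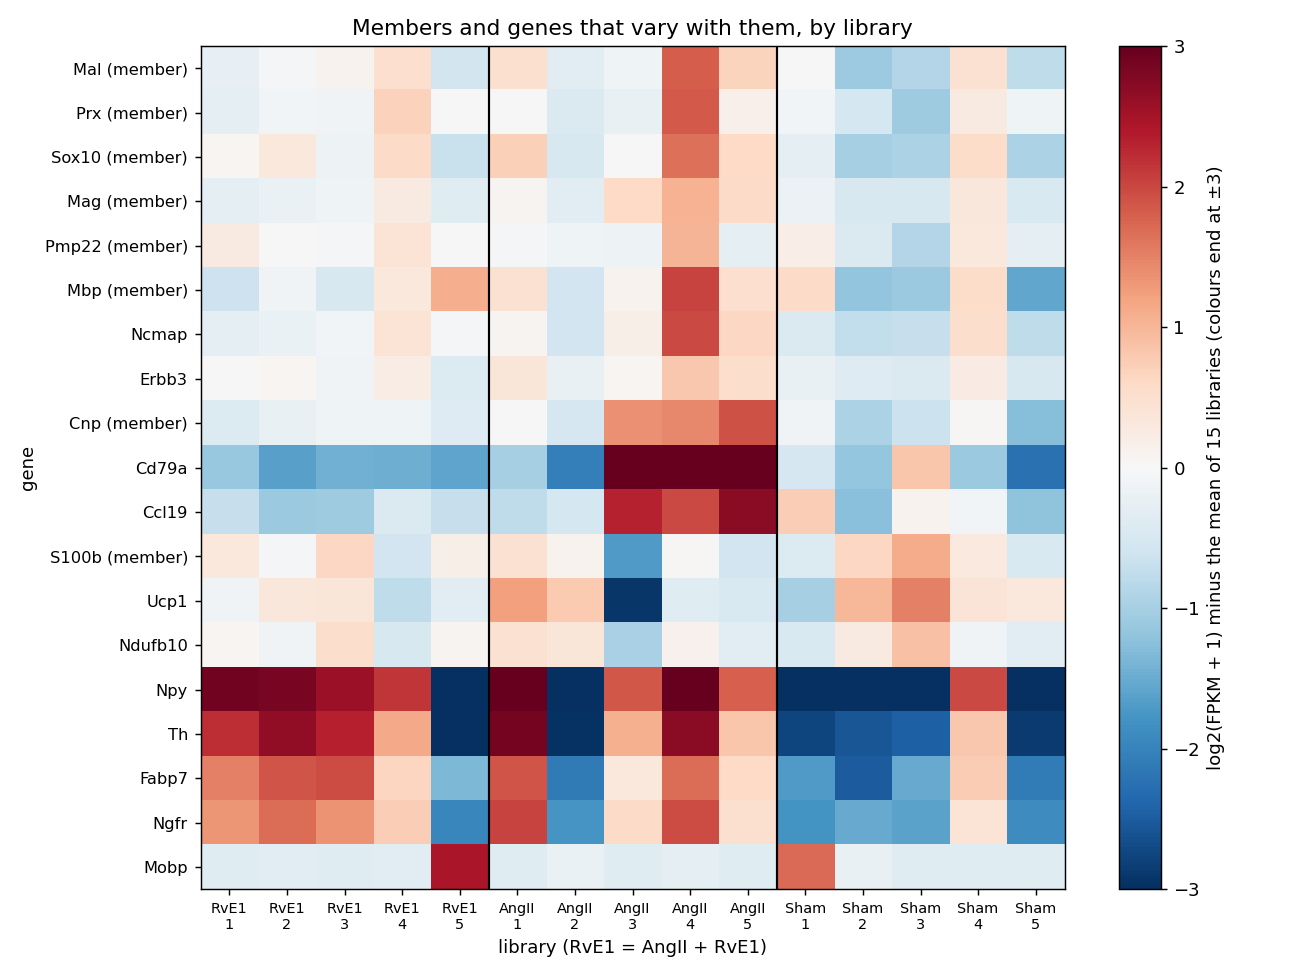
Colour gives log2(FPKM + 1) minus the mean of the 15 libraries, one column per library, for the 8 genes (marked as members) and for genes that vary with them. AngII library 4 is red across Mal, Prx, Sox10, Mag, Pmp22 and Mbp, Cd79a and Ccl19 are red in AngII libraries 3 to 5 with Cnp, and Npy and Th are blue in AngII + RvE1 library 5, AngII library 2 and Sham libraries 1, 2, 3 and 5.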

How the data were processed

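RNA of mouse aorta was extracted with an RNeasy kit and made into libraries with a SMARTER mRNA-seq kit, per the labels' protocols. The build was mm10, per the submitters' processing notes. Aligner, quantifier and annotation: not given in the sources used here. The authors deposited 1 normalised value per gene and library, with no unit named; these deposited values were assumed to be FPKM, made by scaling to gene length and library size. They could also be TPM of a larger gene set. Library values summed to between 385846 and 514281. No interval for counting error is given, because the read depth is unknown. All 34714 symbols matched the RefSeq table of GRCm38.p6.

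Genes with at least 1 FPKM in at least 5 libraries, 12603 in all, were tested as log2(FPKM + 1) with limma-trend (limma 3.58.1, R 4.3.3), 1 mean per group over all 15 libraries, two-sided, with Benjamini-Hochberg adjustment over all genes and a threshold of 0.05. The added 1 pulls differences of low genes toward 0. The script was tested on simulated data. Likeness is Pearson's r of log2 values after subtracting group means, and gene lists were averaged on that scale. Named besides the 8 genes are Egr2, Erbb3, Ngfr and Scn7a, up to 4 called genes of each list or else the gene with the smallest p, and the 3 genes most like each of the 8, without antigen receptor segments and symbols that carry no gene name; other marker genes were named after their values were seen. The genes, lists and tests were chosen with earlier results of these data known. Part of the genes chosen this way are left unreported; list totals and medians include them. Alternatives are given at the end.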

Additional observations from a re-analysis of the deposited data

Results flagged for a closer look

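In 5 of 24 checks, each of 1 gene in 1 group of 5 libraries, the gap from the highest or lowest library to its nearest neighbour was above 0.71 of the group's range. If values were normally distributed and checks independent, about 1 in 20 would be flagged by chance, or 1.2 of 24. The checks used FPKM without the log2 transform, and most of these genes vary together. The chance count is therefore only a rough guide, and flags in the same library are not separate observations. Of the 5, 4 concern AngII library 4. There Mbp was 107 FPKM, with the nearest AngII library at 36.2 FPKM. Pmp22 was 153 FPKM in AngII library 4, with the nearest at 73.5 FPKM. Mal was 12.9 FPKM in AngII library 4, with the nearest at 5.19 FPKM, and Prx was 10.2 FPKM there, with the nearest at 2.49 FPKM. The fifth is Prx in AngII + RvE1 library 4, at 4.07 FPKM, with the nearest AngII + RvE1 library at 2.19 FPKM.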

How the results depend on the processing

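The 7 genes were fitted again with 0.1 added before the log2 transform, with no filter on low values, with only the 2 groups compared, with libraries rescaled by a median ratio, with a replicate block, with an adipocyte or smooth muscle covariate, with array weights, without AngII libraries 3, 4 and 5, and with each library left out. With array weights, 5 of the 7 genes passed in AngII + RvE1 against AngII (median -1.36) and 6 in AngII against Sham (median 1.64). Over all 12603 genes, 1502 were then higher and 2967 lower in the first and 2104 higher and 717 lower in the second, against 531 and 543, and 298 and 102, without weights. Without AngII libraries 3, 4 and 5 the median in AngII against Sham was 0.33, and that in AngII + RvE1 against AngII was 0.01, opposite in sign to the main value. The cause was not tested. With 1 library left out, the number of the 7 that passed ran from 0 to 1 in AngII + RvE1 against AngII, from 0 to 2 in AngII against Sham and was 0 in AngII + RvE1 against Sham; the medians ran from -0.72 to -0.08, from 0.63 to 1.19 and from 0.27 to 0.50. Over all 12603 genes, the total passing ran from 98 (without AngII library 5) to 2035 (without AngII library 2) in AngII + RvE1 against AngII, from 76 (without AngII library 4) to 1719 (without AngII library 2) in AngII against Sham, and from 1 to 8 in AngII + RvE1 against Sham. The genes gained were Cnp, without AngII library 1 or 2, and Sox10 in AngII against Sham without AngII library 2 (limma adjusted p 0.0368). Same-numbered libraries correlated at between -0.41 and 0.52, and a library correlated best with its own number in 3 of 30 cases, so the numbers were not taken to pair libraries; with the replicate block 0 of the 7 passed in each comparison, and the medians were -0.46, 0.96 and 0.36. Of the other values for the 7 genes together, 135 kept their direction and side of the threshold or stayed within the spread. Of the values for single genes, 483 did so, 5 moved by more than the spread without a call, 16 passed that had not, and 0 turned direction past the threshold. Staying within the spread did not require the same sign. In AngII + RvE1 against AngII, Prx went from -0.21 to 0.18 without AngII library 4, and Pmp22 from 0.04 to -0.05 without AngII library 5. In AngII + RvE1 against Sham, S100b went from -0.13 to 0.09 without Sham library 3. Depth per library is unknown and limits what can be said of low genes such as Mag.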

Other observations

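The ratio of Mbp to Sox10, both in FPKM, was 32.7 in AngII + RvE1 library 5 and 15.5 in Sham library 1, the 2 libraries with Mobp above 3 FPKM, and between 4.71 and 9.48 in the other 13. Gfap, a glial filament, was 2.25 FPKM in AngII + RvE1 library 5 and at most 0.530 FPKM in the other 14.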
